A study of Mus musculus with 18 samples.

Results

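The liver transcripts of 10 genes were followed in mice given the hormone GDF15, in vehicle-treated mice and in pair-fed mice: Gdf15 and Fgf21, which encode stress hormones, and Atf4, Atf3, Ddit3, Ddit4, Trib3, Asns, Chac1 and Sesn2, which belong to the integrated stress response. These 10 genes were chosen by name from 16245 genes in the count table, and all 10 passed the filter on low counts in every comparison. All mice were wild-type males, C57BL/6 in the labels and C57BL/6J in the study's methods, kept at about 29 °C on a NASH diet, which is high in fat and fructose, from 8 weeks of age. Mice of the GDF15 group received recombinant GDF15 under the skin every morning. The labels list 3 daily doses (0.3, 1 and 5 nmol/kg) for the experiment without saying which of them these mice received, and the study's text gives the dose behind the liver libraries inconsistently, as the middle or as the highest of these. The daily ration of pair-fed mice was matched to the intake of the GDF15 group, and vehicle mice received the buffer. Each group had 6 libraries of bulk liver RNA, 1 from each mouse.

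GDF15 is a circulating hormone made by stressed cells that lowers food intake through its receptor GFRAL in the hindbrain. FGF21 is a hormone made mainly by the liver that acts through the FGF receptors together with the co-receptor beta-klotho. In the integrated stress response, kinases that sense unfolded proteins, amino acid shortage, viral RNA or haem shortage phosphorylate the initiation factor eIF2, which lowers protein synthesis in general and raises translation of the transcription factor ATF4. ATF4 and its partners then switch on genes of amino acid supply, redox defence and cell death, and Gdf15 and Fgf21 are among the known targets of this pathway. Because ATF4 is controlled largely at translation, transcript counts do not measure its activity directly. The counts of Gdf15 describe the transcript made by the mouse liver and not the injected protein.

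ATF4, CHOP and ATF3 bind, as partners of C/EBP proteins, a composite element of a C/EBP and an ATF half-site, so the promoters of the 10 genes were searched for the letters TGATGNAA on both strands. The window ran from 250 bases before to 50 bases after the RefSeq start of each gene (GRCm38.p6). The element was present in 5 of the 10 promoters, those of Fgf21, Atf3, Trib3, Asns and Chac1, and in 3.97% of 32851 promoters of the same length. These sequences are shown because the element is shared by Fgf21 and Atf3, which were lower with GDF15, and by Chac1 and Asns, which did not pass. They are written 5′ to 3′ on the strand of the gene, with the element in capitals, either as spelled above or in its reverse complement.
Fgf21, chr7:45615606-45615645, minus strand: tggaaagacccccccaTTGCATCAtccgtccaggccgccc
Atf3, chr1:191183420-191183459, minus strand: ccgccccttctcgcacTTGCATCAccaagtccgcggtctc
Chac1, chr2:119351033-119351072, plus strand: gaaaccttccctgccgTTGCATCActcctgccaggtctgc
Asns, chr6:7693210-7693248, minus strand: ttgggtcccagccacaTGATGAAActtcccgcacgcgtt
Fgf21, Atf3 and Chac1 carried the same 8 letters, between 110 and 193 bases before the start when counted to the far edge of the element. In Asns the element lay within 23 bases of the start, and in Trib3 it lay after the start. A pair of other motifs was searched in the same window. The cyclic AMP response element TGACGTCA was found in 0 of the 10 promoters and in 1.79% of all promoters. The AP-1 site TGANTCA was found in 1 of the 10, that of Ddit3, and in 7.81% of all. A match describes the letters only and does not show that a factor was bound there.

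Library totals ranged from 16508864 to 35301853 counts, and 3 of the pair-fed libraries, replicates 4 to 6, were larger than all others. The livers carried the expected hepatocyte transcripts, with the summed level of 8 hepatocyte markers between 71614 and 106491 CPM (counts scaled to a common library total). Values below are normalized counts, which are counts divided by the size factor of the library. A gene passed at a Benjamini-Hochberg adjusted p under 0.05 from DESeq2, adjusted over all genes tested, and this threshold also applies to the gene lists below. On the scale of normalized counts per kb of the longest coding transcript, the vehicle livers held most Atf4 (982 ± 113, SD, n = 6), followed by Gdf15 (752 ± 310), Fgf21 (321 ± 84.6), Ddit3 (190 ± 31.9), Trib3 (130 ± 29.6), Ddit4 (130 ± 52.4), Sesn2 (78.9 ± 7.74), Atf3 (74.1 ± 19.6), Chac1 (50.4 ± 15.48) and Asns (7.40 ± 2.60). In this order the steps from Gdf15 to Fgf21, from Fgf21 to Ddit3 and from Chac1 to Asns were larger than the summed SDs of the neighbouring genes. Other neighbours overlapped within their SDs.

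With GDF15, 2 of the 10 transcripts were lower than with vehicle, Fgf21 and Atf3, and none of the 10 was higher. The background was wide, since 33.3% of 14667 genes passed in this comparison, 17.5% as lower and 15.8% as higher, so the share of the 10 that passed was not above that of genes in general. Against pair-fed mice the same 2 genes passed, both lower in the GDF15 group, where 27.1% of 14353 genes passed 13.8% as lower and 13.3% as higher. The median log2 fold change of the 10 was −0.03 against vehicle and −0.07 against pair-fed mice, beside 0.00241 and −0.000775 over all genes tested. Where an absolute log2 fold change above 1 was required as well, Atf3 alone passed in each comparison, beside 6.27% of genes against vehicle and 3.37% against pair-fed mice. The quasi-likelihood test of edgeR passed 34.6% and 27.9% of 12992 genes, among them Fgf21 and Atf3 against vehicle and Atf3 against pair-fed mice. The GDF15 libraries are shared by these comparisons, so they do not count as independent of each other. In pair-fed against vehicle livers none of the 10 passed, at either the adjusted or the unadjusted threshold of 0.05. No gene of 16242 passed that comparison by DESeq2 (0.0%) or by edgeR, and 718 genes (4.42%) had an unadjusted p under 0.05 in DESeq2.

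**Figure D1:**
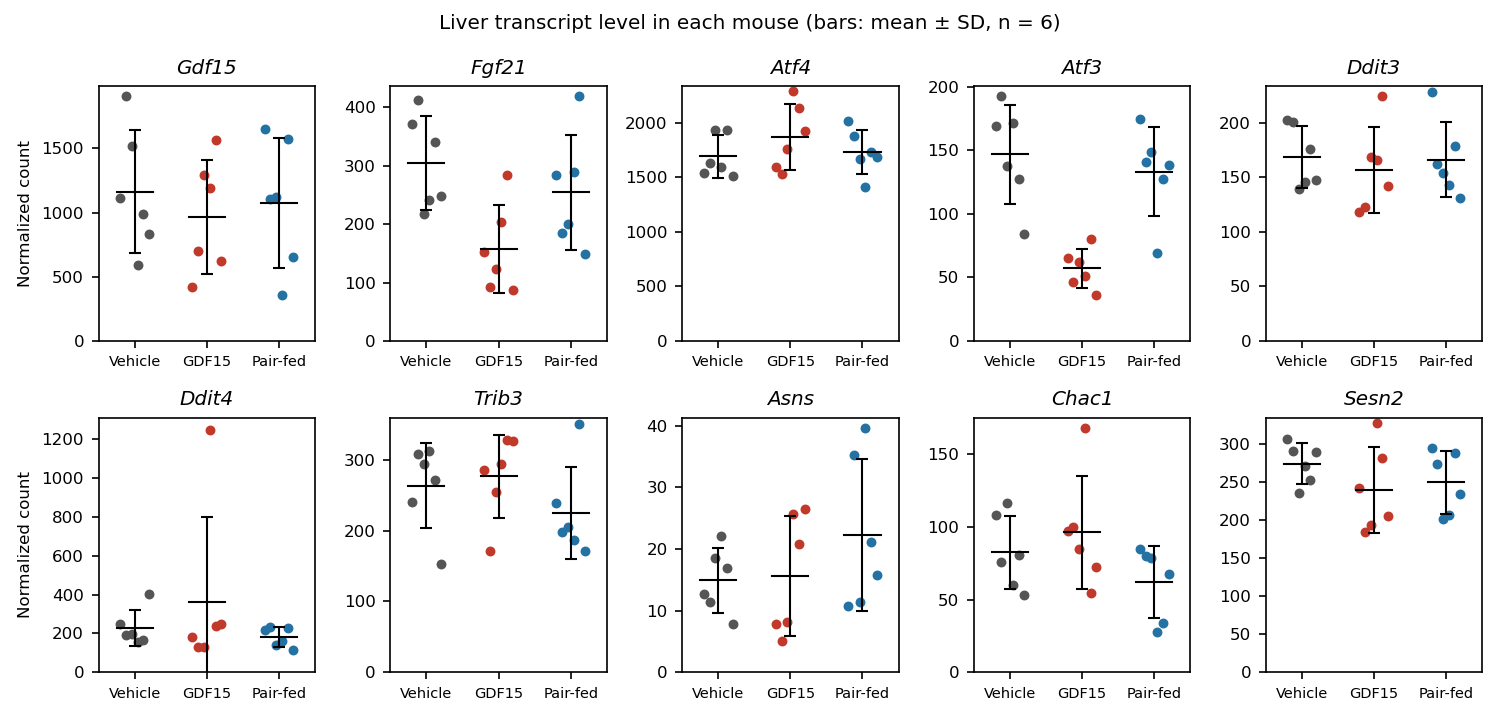
Normalized counts (y axis, from 0) of the 10 genes in each of 18 livers, by group (x axis). Points are mice, horizontal lines are means and bars are SD (n = 6), with the lower bar of Ddit4 in the GDF15 group ending at the axis. Atf3 lies lower in every GDF15 liver than in every vehicle liver, and a single GDF15 liver sets the Ddit4 mean.

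Fgf21 (chr7:45613886-45615490, minus strand, GRCm38) was lower in the livers of GDF15-treated mice. It measured between 88.0 and 284 normalized counts in the GDF15 group (median 138), between 216 and 413 in the vehicle group (median 294) and between 149 and 419 in the pair-fed group (median 242). In 5 of the 6 GDF15 livers Fgf21 was below every vehicle liver, and the exception was replicate 5 with 284. Only 3 of the 6 were below every pair-fed liver. The group means were 157 ± 75.5 for GDF15, 305 ± 80.5 for vehicle and 255 ± 98.2 for pair-fed livers (SD, n = 6). The log2 fold change against vehicle was −0.96 (SE 0.28, DESeq2 adjusted p = 0.00323, edgeR adjusted p = 0.0127), a level 1.95-fold lower. Against pair-fed mice it was −0.70 (SE 0.28, DESeq2 adjusted p = 0.0458), which did not pass in edgeR (adjusted p = 0.0685). That second call was fragile, and over 28 alternative settings the adjusted p of DESeq2 or edgeR ran from 0.00265 to 0.513 and passed in 12. It was lost on leaving out any of vehicle replicates 4 (adjusted p = 0.0507) and 5 (0.0535), GDF15 replicates 1 (0.0737), 2 (0.111), 3 (0.0919), 4 (0.0605) and 6 (0.114), and pair-fed replicates 1 (0.0861), 4 (0.0809) and 5 (0.175). Against vehicle the fall of Fgf21 passed without each of the 18 libraries in turn, with log2 fold changes between −1.21 and −0.84. The difference between pair-fed and vehicle mice was −0.26 (95% interval −0.80 to 0.28).

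Gdf15 itself (chr8:70629393-70632456, minus strand, GRCm38), the transcript of the injected hormone's mouse counterpart, varied more among mice than between groups. It ranged from 421 to 1564 normalized counts with GDF15 (median 944), from 595 to 1909 with vehicle (median 1054) and from 358 to 1651 with pair-feeding (median 1115). The 3 groups overlapped almost completely. The means were 965 ± 447 (SD, n = 6), 1162 ± 479 and 1077 ± 506. The log2 fold change of GDF15 against vehicle was −0.27 (95% interval −1.04 to 0.51, DESeq2 adjusted p = 0.643), against pair-fed −0.16 (−0.93 to 0.62), and of pair-fed against vehicle −0.11 (−0.88 to 0.67). All 3 intervals include 0 and leave room for a change in either direction. The study names Gdf15 among the genes of a human NASH signature that GDF15 treatment lowered in liver. Its text gives no value or test for this single gene, and the lower mean found here did not pass.

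Among the transcription factors, Atf3, a stress-induced member of the ATF family that is also an immediate early gene, had the lowest adjusted p of the 10. It lies at chr1:191170296-191218039 on the minus strand (GRCm38), and the start used for the promoter above falls inside this span. The 6 GDF15 livers held 65.0, 46.5, 62.4, 51.4, 80.5 and 36.2 normalized counts of Atf3 and the 6 vehicle livers 169, 193, 137, 171, 127 and 84.4. These groups did not overlap, which was also so, in the same direction, for 6.94% of all genes tested. The 6 pair-fed livers held 175, 141, 149, 69.3, 127 and 138, and the liver with 69.3, replicate 4, was the single pair-fed liver within the GDF15 range. The log2 fold change of Atf3 was −1.37 against vehicle (SE 0.23, DESeq2 adjusted p = 5.62e-08, edgeR adjusted p = 0.000212), a level 2.58-fold lower. Against pair-fed mice it was −1.22 (SE 0.23, DESeq2 adjusted p = 2.19e-06, edgeR adjusted p = 0.000812), a level 2.33-fold lower. Both calls held in all 28 alternatives, with adjusted p of at most 0.00942 against vehicle and 0.0398 against pair-fed mice. Pair-fed and vehicle livers differed by −0.15 on the log2 scale (95% interval −0.57 to 0.28).

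Markers of some non-parenchymal cell types moved with Atf3, beside the 33.3% of all genes that passed against vehicle and the 27.1% against pair-fed mice. In bulk liver, fewer cells of a type and less RNA per cell cannot be told apart. Of 10 macrophage and Kupffer cell markers, 7 were lower with GDF15 than with vehicle and none was higher, and their summed level ran from 128 to 271 CPM with GDF15, from 213 to 491 with vehicle and from 217 to 379 with pair-feeding. Against pair-fed mice 6 of these 10 were lower. No marker was at 0 throughout a group. All 8 stellate cell and fibroblast markers were lower than with vehicle and 7 lower than with pair-feeding, with a sum between 190 and 303 CPM in GDF15, 426 and 834 in vehicle and 390 and 668 in pair-fed livers. All 6 cholangiocyte markers were lower than with vehicle, with sums of 45.4 to 90.0 against 113 to 468 CPM. Against pair-fed mice, whose sums were 105 to 322 CPM, 1 of the 6 passed as lower. The median log2 fold change of the 6 was −0.50 there. Of 7 endothelial markers, 1 was lower and 1 higher than with vehicle and 2 were lower than with pair-feeding, and the median sum was 151 CPM in GDF15, 157 in vehicle and 188 in pair-fed livers. Of 8 lymphocyte markers, 1 was lower and 1 higher than with vehicle and 2 were lower than with pair-feeding. Of the neutrophil markers tested, 1 of 4 was lower than with vehicle and 1 of 3 lower than with pair-feeding. Hepatocyte markers summed to 97495 to 106491 CPM with GDF15, 79787 to 89678 with vehicle and 71614 to 100435 with pair-feeding, which overlapped the GDF15 range. With group means removed, Atf3 followed the macrophage sum with a Pearson r of 0.66 (permutation p = 0.00517, 0.207 after adjustment over 80 relations of the 10 genes with 8 library measures, Spearman rho = 0.70, permutation p = 0.00346, n = 18), and r was 0.59 without the 2 livers farthest from the median of that sum. The relation was not particular to macrophages. The r of Atf3 was 0.55 with the cholangiocyte sum (permutation p = 0.0290) and 0.53 with the stellate cell and fibroblast sum (permutation p = 0.0348), each 0.299 after adjustment. It was 0.42 with the neutrophil, 0.31 with the endothelial and 0.28 with the lymphocyte sum. Atf3 went against the hepatocyte sum with an r of −0.63 (permutation p = 0.00156, adjusted 0.125, rho = −0.60, permutation p = 0.00891, n = 18), and r was −0.69 without the 2 farthest livers. The part of cell composition in the lower Atf3 was not tested.

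Atf4, the central activator of the response, was between 1532 and 2295 normalized counts with GDF15 (median 1843), between 1511 and 1939.9 with vehicle (median 1614) and between 1413 and 2014 with pair-feeding (median 1709.9). The groups overlapped, and 2 GDF15 livers lay above all vehicle livers. The log2 fold change was 0.15 against vehicle (95% interval −0.07 to 0.36, DESeq2 adjusted p = 0.312) and 0.11 against pair-fed mice (−0.10 to 0.33). For Ddit3, which encodes the pro-apoptotic factor CHOP, the range was 118 to 225 with GDF15, 139.6 to 202 with vehicle and 131 to 228 with pair-feeding. Its log2 fold change was −0.11 against vehicle (95% interval −0.44 to 0.21) and −0.09 against pair-fed mice (−0.41 to 0.24). Exons of Ddit3 (chr10:127290774-127296288, plus strand, GRCm38) overlap those of Mars and Gm4189 on the opposite strand. The library kit keeps strand, but whether the quantification used it is not given in the sources used here, so the Ddit3 count carries that uncertainty.

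The effector genes did not pass in either GDF15 comparison. Trib3, a pseudokinase that feeds back on ATF4, ranged from 170.4 to 327 normalized counts with GDF15, from 153 to 311 with vehicle and from 172 to 349 with pair-feeding. Chac1, which degrades glutathione, ranged from 54.6 to 168 with GDF15, from 53.3 to 116 with vehicle and from 28.0 to 85.1 with pair-feeding. In 3 of the 6 GDF15 livers Chac1 lay above all pair-fed livers, with a log2 fold change of 0.64 (SE 0.29, DESeq2 adjusted p = 0.0874). This passed on leaving out GDF15 replicate 5 (0.76, adjusted p = 0.0412), and the adjusted p of Chac1 against pair-fed mice ran from 0.0102 to 0.596 over 28 alternatives. Trib3 against pair-fed mice was 0.29 (DESeq2 adjusted p = 0.269), and it passed on leaving out pair-fed replicate 5 (0.47, adjusted p = 0.0380), with a range of adjusted p from 0.0380 to 0.632. Against vehicle the log2 fold changes of Trib3 and Chac1 were 0.07 (95% interval −0.31 to 0.45) and 0.22 (−0.35 to 0.79).

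Asns, the asparagine synthetase that is a standard reporter of amino acid shortage, was the lowest of the 10. It held 5.16 to 26.5 normalized counts with GDF15, 7.77 to 22.1 with vehicle and 10.8 to 39.6 with pair-feeding. Its interval against vehicle was wide, from −0.81 to 0.89 on the log2 scale. Sesn2, which restrains the growth kinase complex mTORC1, held 185 to 328 with GDF15, 235 to 307 with vehicle and 201 to 294 with pair-feeding. Its log2 fold change was −0.20 against vehicle (95% interval −0.48 to 0.07) and −0.06 against pair-fed mice (−0.34 to 0.21). Ddit4, another mTORC1 inhibitor that also responds to glucocorticoids and low oxygen, had 1243 normalized counts in GDF15 replicate 4 and 128 to 247 in the other 5 GDF15 livers. Vehicle livers held 156 to 403 and pair-fed livers 117 to 234. The log2 fold change of 0.67 against vehicle (SE 0.50, DESeq2 adjusted p = 0.309) became −0.29 (adjusted p = 0.403) without GDF15 replicate 4, and that of 0.99 against pair-fed mice (DESeq2 adjusted p = 0.127) became 0.02 (adjusted p = 0.961). Over 28 alternatives the adjusted p of Ddit4 ran from 0.0803 to 0.776 against vehicle and from 0.0678 to 0.961 against pair-fed mice.

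**Figure D2:**
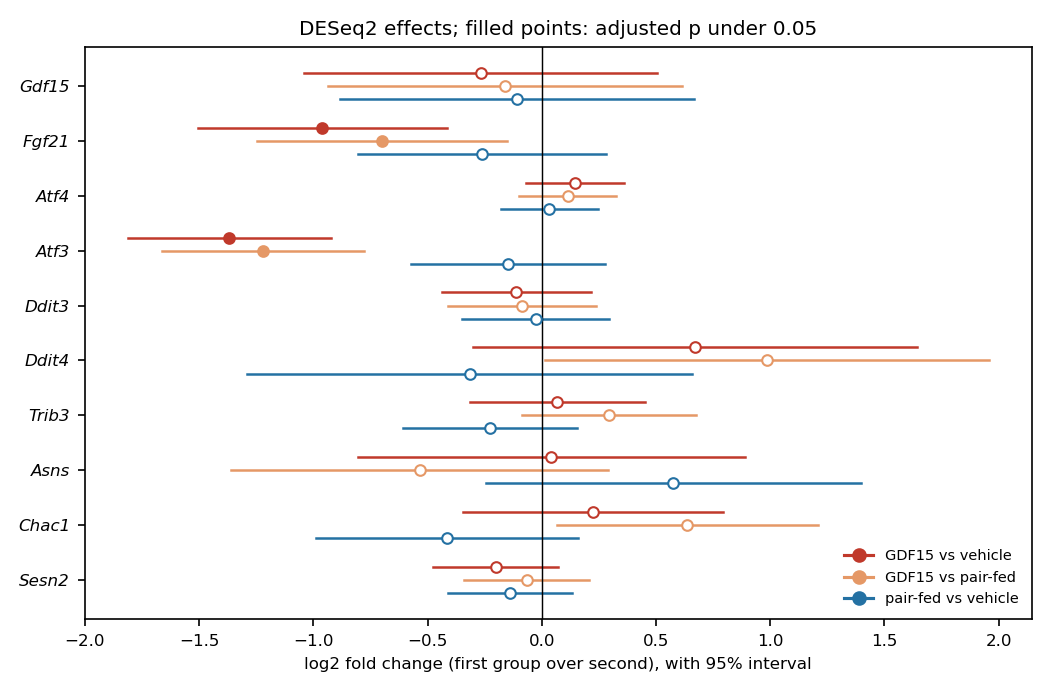
Log2 fold changes of the 10 genes (x axis) in the 3 comparisons, with 95% intervals as lines. Filled points passed at a DESeq2 adjusted p under 0.05. Fgf21 and Atf3 are filled in both GDF15 comparisons, no point is filled for pair-fed against vehicle, and the intervals of Gdf15, Ddit4 and Asns are the widest.

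Although no group difference was detected for Gdf15, its level differed widely between mice of the same group, so the transcripts that varied with it were sought across livers. For this, group means were removed from log2(normalized count + 1), and Gdf15 was compared with each of 12882 genes over 18 livers. Of the 9 other genes, 8 had a positive Pearson r with Gdf15, where 50.9% of all genes had one. None of the 9 passed after adjustment over all genes, nor did any other gene (0.0% of 12882), while 7.89% of all genes (1017) had an unadjusted permutation p under 0.05.

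Ddit3 followed Gdf15 most closely of the 9 and ranked 13 of 12882 genes by r. The r was 0.74 (permutation p = 0.00138, adjusted p = 0.616) and the Spearman rho 0.78 (permutation p = 0.000580). Leaving out the 2 livers farthest from the median of Gdf15, pair-fed replicate 4 with 358 and GDF15 replicate 1 with 421 normalized counts, left an r of 0.73. Within groups of 6, r was 0.45 in vehicle (exact permutation p = 0.361), 0.91 in GDF15 (exact p = 0.0153) and 0.76 in pair-fed livers (exact p = 0.0806). Without any single liver it stayed between 0.70 and 0.83. The r of Ddit3 was positive in each group, and the relation did not pass after adjustment over 12882 genes.

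Atf4 came next, with an r of 0.64 (permutation p = 0.00966, adjusted p = 0.616, rho = 0.61, permutation p = 0.0152), which fell to 0.44 without the 2 farthest livers. For Atf3 the r was 0.56 (permutation p = 0.0262, adjusted p = 0.616, rho = 0.50, permutation p = 0.0493), and 0.52 without those livers. Fgf21 had an r of 0.43 (permutation p = 0.109, rho = 0.51, permutation p = 0.0532), and 0.72 without the 2 farthest livers. Pair-fed replicate 4, which had the lowest Gdf15 of all livers, held 289 normalized counts of Fgf21, above the pair-fed median. Sesn2 (r = 0.41), Trib3 (0.40), Chac1 (0.31) and Ddit4 (0.25) had lower positive values with permutation p between 0.124 and 0.370, and Asns had an r of −0.10 (permutation p = 0.704). Gdf15 also went against the library total, with an r of −0.56 (permutation p = 0.0350, adjusted p = 0.299 over 80 relations, rho = −0.63, permutation p = 0.0125, n = 18) and −0.84 without the 2 livers with the most extreme totals. The corresponding r was −0.54 for Ddit3 and −0.52 for Atf4. With the log2 library total removed as well as the group mean, an alternative added after seeing the data, the r with Gdf15 was 0.63 for Ddit3 (permutation p = 0.0130, adjusted p = 0.999), 0.58 for Atf3 and 0.49 for Atf4.

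**Figure D3:**
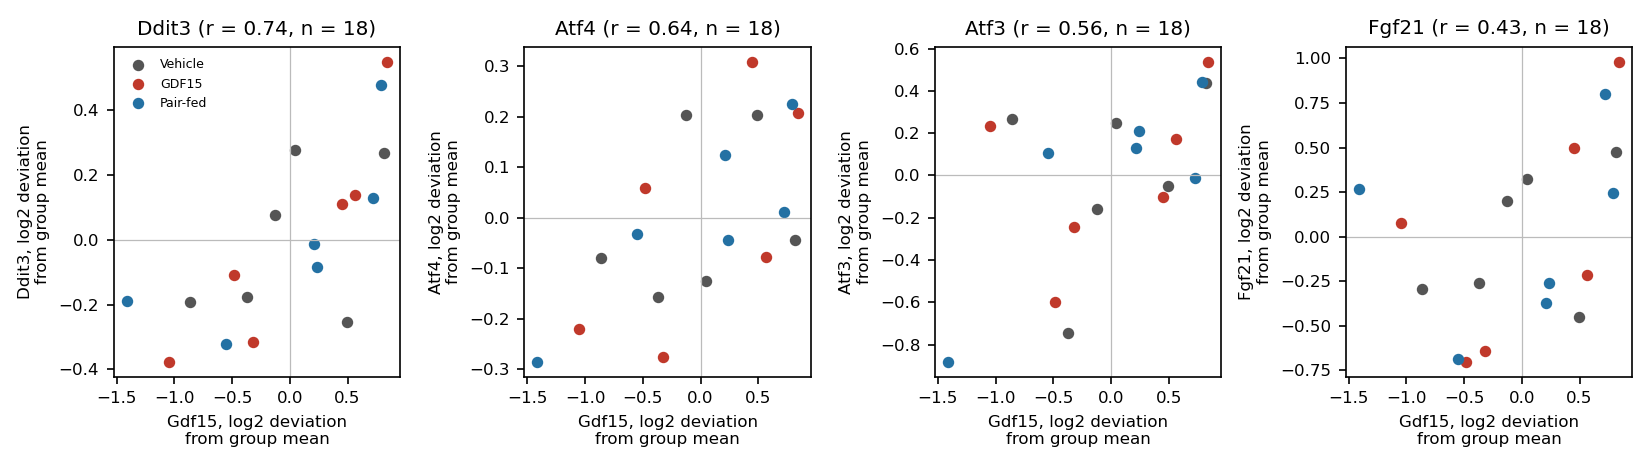
Deviation of Ddit3, Atf4, Atf3 and Fgf21 from the group mean (y axes, log2) against that of Gdf15 (x axes, log2) in 18 livers, coloured by group. Ddit3 is higher in livers with more Gdf15 (r = 0.74), and the lowest Gdf15 values at the left belong to 1 pair-fed and 1 GDF15 liver.

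Most pairs of the 10 genes also varied in the same direction. Of the 45 pairs, 39 (86.7%) had an r above 0 over the 18 livers with group means removed, beside 49.8% of all pairs of 12883 genes, and the median r was 0.38 beside −0.0020 over all pairs. With the log2 library total removed as well, an alternative chosen after seeing the data, 38 of the 45 were above 0, with a median of 0.35, beside 49.8% and −0.0019 over all pairs. These values are a description, since all pairs share the same livers and libraries. The highest was that of Sesn2 with Ddit4 (r = 0.75, permutation p = 0.000850, rho = 0.70, permutation p = 0.00455, and r = 0.65 without the 2 livers farthest in Sesn2). GDF15 replicate 4 had the highest normalized counts of both genes, 1243 of Ddit4 and 328 of Sesn2, and stayed in that check. The dependence of this r on that liver was not tested. Fgf21 was closest to Ddit3 (r = 0.72, permutation p = 0.00342, adjusted p = 0.477 over all genes, and rho = 0.69) and to Sesn2 (r = 0.65, permutation p = 0.0150, adjusted p = 0.604, and rho = 0.65). The lowest was that of Chac1 with Fgf21 (r = −0.25). The r of Asns with the other 9 ran from −0.22 to 0.46 and that of Chac1 from −0.25 to 0.41, while the promoters of Asns and Chac1, like those of Fgf21 and Atf3, hold the composite element.

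**Figure D4:**
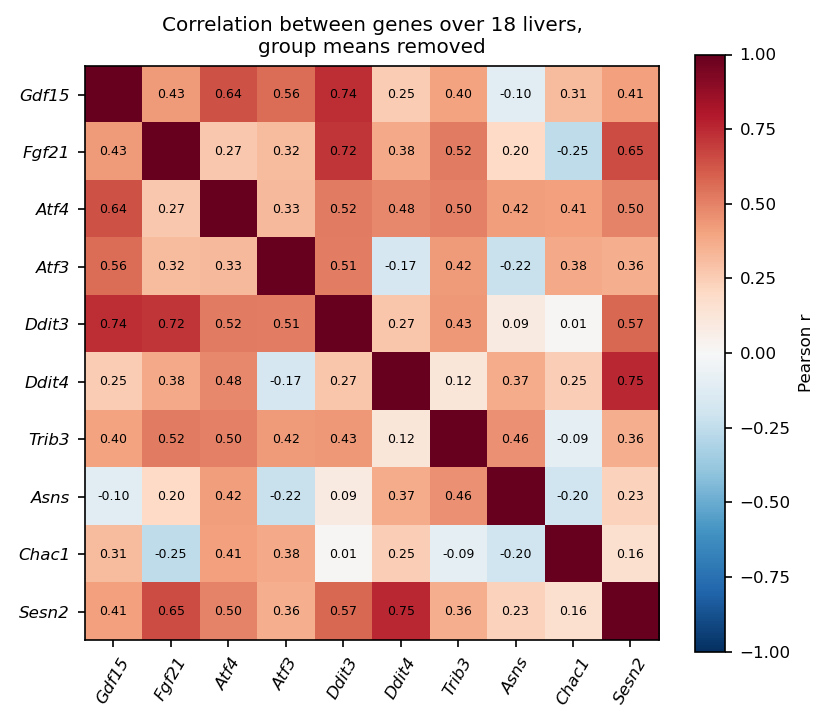
Pearson r between each pair of the 10 genes over 18 livers after removal of group means, with r printed in each cell and coloured from blue (−1) to red (1). The reddest cells off the diagonal are Sesn2 with Ddit4, Gdf15 with Ddit3 and Fgf21 with Ddit3, and each of the blue cells involves Asns, Chac1 or Ddit4.

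The genes outside the 10 whose pattern was most like that of Gdf15, among 10874 with a mean of at least 50 normalized counts, were Tasor2 (r = 0.82, rho = 0.83), Jun (r = 0.82, rho = 0.84), Samd4 (0.79 and 0.73), Oser1 (0.79 and 0.78), Tprn (0.78 and 0.77) and Hace1 (0.77 and 0.80), over 18 livers. Jun, a subunit of the AP-1 transcription factor, had the lowest adjusted permutation p of these 6 (0.172). The genes with the lowest r were Iftap (−0.85), Ublcp1 (−0.84), F11, which encodes coagulation factor XI (−0.82), and Sys1 (−0.75). Fgf21 was most closely followed by Gpr135 (r = 0.83), Gadd45b (0.82, adjusted permutation p = 0.0859), Mmp14 (0.80) and Wtap (0.79). None of these genes passed after adjustment.

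The remaining targets of the integrated stress response were split in direction. For each list the share of all genes that passed is the background, 33.3% against vehicle (15.8% as higher) and 27.1% against pair-fed mice (13.3% as higher). Of 11 enzymes of serine, one-carbon and amino acid metabolism, 4 were higher and 2 lower with GDF15 than with vehicle, and 3 were higher and 2 lower than with pair-feeding. Got1, the cytosolic aspartate aminotransferase, rose from 3438 ± 823 to 7766 ± 3089 normalized counts (SD, n = 6, log2 fold change 1.18, DESeq2 adjusted p = 1.97e-06). Cbs and Cth, which carry sulfur from homocysteine to cysteine, were higher by log2 differences of 0.62 and 0.61, and Gpt2, the mitochondrial alanine aminotransferase, fell by 0.30. Against pair-fed mice Cbs (0.80), Cth (0.70) and Got1 (1.17) were also higher and Aldh18a1, which starts proline synthesis, was lower (−0.88). Without GDF15 replicate 4 the split against vehicle became 3 higher and 5 lower, and without GDF15 replicate 3 the count of 5 against pair-fed mice became 3. The median of the list was −0.30 against vehicle and −0.19 against pair-fed mice, so it was negative while more of the genes that passed were higher.

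Of 8 amino acid transporters, Slc38a2 was higher and Slc7a1 lower in both GDF15 comparisons. Slc38a2, a neutral amino acid carrier, rose by 0.84 against vehicle (DESeq2 adjusted p = 2.16e-05) and by 0.76 against pair-fed mice (adjusted p = 0.000212). Slc7a1, a carrier of cationic amino acids, fell by 0.82 and by 1.01, and the median of the list was −0.13 and −0.07. Of 13 genes of tRNA charging, Eprs (0.19), Aars (0.32) and Mars1 (0.27) were higher than with vehicle and none was lower, and Eprs (0.15) and Mars1 (0.25) were higher than with pair-feeding. The 3 of 13 and 2 of 13 were not above the 33.3% and 27.1% of all genes, and the medians were 0.08 and 0.03. The direction of this list was not stable. With replicates 1 to 3 alone, 3 genes were lower than with vehicle and 7 lower than with pair-feeding and none was higher, while with replicates 4 to 6 alone 5 and 8 were higher and none was lower. The count of 2 against pair-fed mice became 1 without each of GDF15 replicates 1, 2, 4, 5 and 6 and pair-fed replicates 1, 4 and 6, and 0 without pair-fed replicate 5, and without GDF15 replicate 4 the 1 gene was lower.

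Of 12 transcription and feedback genes, 3 were higher and 3 lower than with vehicle. Vegfa, an angiogenic factor, was higher (0.55, DESeq2 adjusted p = 8.94e-09), and so was Herpud1, a component of protein disposal from the endoplasmic reticulum (0.64). Nupr1, a stress-induced nuclear protein, was lower (−1.13, DESeq2 adjusted p = 5.44e-05), and Stc2, which encodes a secreted glycoprotein, was lower with few counts (−1.38, from 13.2 ± 7.22 to 5.04 ± 3.40). Without vehicle replicate 2 the count of 6 became 3. The median was −0.01 against vehicle and 0.08 against pair-fed mice. Against pair-fed mice Vegfa (0.39), Cebpb (0.73) and Herpud1 (0.56) were higher and Nupr1 was lower (−0.97). Of 15 genes of the sensors and the eIF2 machinery, 5 were higher and 1 lower than with vehicle. Eif2a (0.17), Ppp1r15b, a subunit of the phosphatase that reverses eIF2 phosphorylation (0.27), Eif2b5 (0.14) and Eif2b4 (0.17) were among the higher genes, and the count of 6 became 3 without vehicle replicate 1, vehicle replicate 2 or GDF15 replicate 2. Against pair-fed mice Eif2a (0.20) and Eif2b4 (0.18) were higher and Eif2ak3, the kinase PERK that senses unfolded proteins, was lower (−0.57, DESeq2 adjusted p = 0.00346), with list medians of 0.10 and 0.05 in the 2 comparisons. The count of 3 against pair-fed mice became 0 with the 3 larger pair-fed libraries. With replicates 4 to 6 alone it became 1, Eif2s2.

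On the side of FGF21 reception, Klb, which encodes beta-klotho, and Fgfr4, the main FGF receptor of hepatocytes, were higher in GDF15-treated livers in which Fgf21 was lower. Klb rose from 494 ± 88.6 to 743 ± 85.6 normalized counts against vehicle (SD, n = 6, log2 fold change 0.59, DESeq2 adjusted p = 4.87e-06), and by 0.46 against pair-fed mice. Its groups did not overlap in either comparison, which was also so, in the same direction, for 5.75% of all genes against vehicle and 4.86% against pair-fed mice. Fgfr4 was higher by 0.39 and 0.42, and Fgf1, another ligand of these receptors, by 0.70 and 0.58. Furin, a protease that matures pro-GDF15, was higher by 0.23 in both comparisons. Of 12 receptor and processing genes tested, 5 were higher and 2 lower in each comparison, with medians of 0.18 and 0.19, and none passed with an absolute log2 fold change above 1 as well. The count of 7 became 3 against vehicle and 4 against pair-fed mice with replicates 1 to 3 alone. With replicates 4 to 6 alone it became 4 and 3, and with the 3 larger pair-fed libraries 4 against pair-fed mice. Klb passed in each of these settings, and Fgfr4 did not with replicates 1 to 3. The FGF receptors did not all move the same way. Fgfr1 was lower than with vehicle, with its value given below. Fgfr2 was lower than with pair-feeding (−0.32, DESeq2 adjusted p = 0.0143), and both were named after their values were seen. Hepatocyte markers had median log2 fold changes of 0.48 against vehicle and 0.50 against pair-fed mice. The part of cell composition in the higher Klb and Fgfr4 was not tested. Gfral and Ret, which form the GDF15 receptor, were not analysed here.

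Lists of other inputs to Gdf15, Fgf21, Atf3 and Ddit4 were counted in the same way. Of 15 targets of PPAR alpha, a nuclear receptor of fatty acids that also drives Fgf21, 5 were lower and 1 higher than with vehicle, and 4 were lower and none higher than with pair-feeding. These counts, 6 of 15 and 4 of 15, were near the 33.3% and 27.1% of all genes. With replicates 1 to 3 alone, 4 were higher and 4 lower than with vehicle, and 5 higher and 3 lower than with pair-feeding. With replicates 4 to 6 alone, 6 were lower than with vehicle and 7 lower than with pair-feeding, and none was higher. Cidea, a lipid droplet protein, was lower by the most among the genes that passed (−3.28 against vehicle and −2.96 against pair-fed mice), with Acaa1b (−0.64 and −0.53), Vnn1 (−0.58 and −0.63) and Ehhadh (−0.31 against vehicle) also lower. The median of the list was −0.02 and −0.04. Of 10 targets of p53, which can induce Gdf15 and Sesn2, 5 were lower and 1 higher than with vehicle, among them Phlda3 (−1.79), Eda2r (−1.49), Gtse1 (−1.41) and Ccng1 (−0.29), and 4 were lower than with pair-feeding. The median of this list was −0.33 and −0.24. Its count of 4 against pair-fed mice became 1, Phlda3, with the 3 larger pair-fed libraries and 2 with replicates 4 to 6 alone.

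Of 10 glucocorticoid targets, 5 were higher and none lower in both GDF15 comparisons, beside 15.8% and 13.3% of all genes as higher. Fkbp5, a chaperone that dampens the glucocorticoid receptor, rose from 659 ± 126 to 1641 ± 710 normalized counts against vehicle (SD, n = 6, log2 fold change 1.32, DESeq2 adjusted p = 0.000102), and Tat, a tyrosine-degrading enzyme, was higher by 1.40 with overlap of the groups. Tat is also among the 8 hepatocyte markers above, so these 2 lists share a gene. Klf9 was higher by 0.58 and 0.70 and Nr3c1, the receptor itself, by 0.21 in each, and the median of the list was 0.67 and 0.79. The count against vehicle became 8 without vehicle replicate 6, which had the highest Ddit4 of its group. That against pair-fed mice became 9 without pair-fed replicate 4 and fell to 3 with the 3 larger pair-fed libraries. Of 20 immediate early genes, a class that includes Atf3, 8 were lower and 4 higher than with vehicle. Egr2 (−1.63) and Klf6 (−1.02) were lower, and Ier2 (0.45) and Zfp36 (0.62), which speeds the decay of cytokine transcripts, were higher. Against pair-fed mice 5 were lower, among them Nr4a2 (−1.02) and Egr2 (−1.45), and 4 were higher, again with Ier2 (0.44) and Zfp36 (0.71), with list medians of −0.43 and −0.24. With replicates 4 to 6 alone the split turned to 5 higher and 2 lower against vehicle and 5 higher and none lower against pair-fed mice. In pair-fed against vehicle livers no gene of any of these lists passed. To complete small counts against vehicle, the following genes were named after their values were seen. Shmt2 (0.19) was the other enzyme that was higher and Phgdh (−1.36) the other that was lower, Cebpb (0.47) the other feedback gene that was higher and Sqstm1 (−0.27) the other that was lower, and Eif2ak3 (−0.44) the sensor that was lower. Pcsk6 (−0.20) and Fgfr1 (−0.49) were the lower receptor and processing genes, Pdk4 (−1.41) and Cyp4a14 (0.71) the other PPAR alpha targets that passed, Bax (−0.37) and Sesn1 (0.26) the other p53 targets, and Pck1 (0.88) the other glucocorticoid target.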

How the data were processed

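Liver RNA of 18 mice was sequenced from libraries made with a directional kit. The authors trimmed reads with Trim Galore and quantified transcripts with Salmon, and the deposited table holds estimated counts per gene as whole numbers with no scaling for depth. The genome build named in the submitters' notes is mm10, and the versions and the transcriptome are not given in the sources used here. Its lowest row total was 5, and all 18 columns were used.

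DESeq2 (version 1.42.0, R 4.3.3) was fitted to all 18 samples together with group as its factor, median-of-ratios size factors and independent filtering, and adjusted over all genes tested. The study adds an absolute log2 fold change above 1, which was an alternative here. The quasi-likelihood test of edgeR (4.0.16) was another. The median fold change over all genes was near 0. Correlations used log2(normalized count + 1) with a pseudocount of 1, genes with a mean of at least 10, and 100000 two-sided shuffles within groups, or all 720 orders within a group of 6 (numpy 2.4.6). Procedures were tested on simulated data. A count of 3 corresponds to 0.0850 to 0.182 CPM. This floor and all intervals at 95% rest on reads without molecular identifiers.

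The genes and lists were chosen with earlier results of these data known. Named genes were the 10 members, up to 4 genes per list and comparison by lowest adjusted p among those that passed, the 6 highest and 4 lowest r with Gdf15, and the 4 highest with Fgf21. Cell type markers were described as sums. Correlations with library measures were added after seeing the data. Positions are from GENCODE (GRCm38), promoters from RefSeq (GRCm38.p6). The titles do not say that the replicate numbers 1 to 6 pair mice, and the main fit did not pair them.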

Additional observations from a re-analysis of the deposited data

Results flagged for a closer look

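Of 30 groups of 6 livers (10 genes in 3 groups), 2 held a liver far from the others by Dixon's test, and chance alone flags about 1 in 20 groups, or 1.5 here. Both concerned Ddit4. GDF15 replicate 4 had 1243 normalized counts of Ddit4, and the other 5 livers of its group had 128 to 247. Vehicle replicate 6 had 403, and the other 5 had 156 to 248.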

How the results depend on the processing

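Of the 10 genes, 2 passed in GDF15 against vehicle in 27 of 29 alternatives. The count was 1, Atf3, with replicates 4 to 6 alone, where Fgf21 was −0.53 (adjusted p = 0.536), and with an absolute log2 fold change above 1 as well. Against pair-fed mice the count was 1, again Atf3, in edgeR, without independent filtering, with the 12 samples compared alone, with the 3 smaller pair-fed libraries and with the fold threshold, and leaving out each sample in turn gave 2 against vehicle and 1 to 3 against pair-fed mice. With replicates 4 to 6 alone the 3 genes against pair-fed mice were Atf3, Atf4 (0.40, adjusted p = 0.0180) and Chac1 (1.18, adjusted p = 0.0432), each group then having 3 mice. With the 3 larger pair-fed libraries Chac1 also passed (1.15, adjusted p = 0.0102) and Fgf21 did not (adjusted p = 0.0761). Counts for pair-fed against vehicle and for the correlation with Gdf15 were 0 throughout. The direction of Gdf15 against vehicle, which did not pass, was −0.91 with replicates 1 to 3 and 0.48 with replicates 4 to 6. The replicate block gave 2, 2 and 0 members in the 3 comparisons. Same-numbered samples deviated together by a mean r of 0.00436 (vehicle and GDF15), 0.0266 (GDF15 and pair-fed) and 0.171 (vehicle and pair-fed). Differently numbered samples had a mean r of 0.000623, −0.00542 and −0.0346 in the same order. For vehicle and pair-fed samples the single values overlapped, from −0.00676 to 0.520 with the same number and from −0.390 to 0.376 otherwise. Whether a number stands for anything shared was not tested. A cause for these dependences was not tested. With the fold threshold each of the 10 other gene lists kept 0 to 5 genes per GDF15 comparison. Counts of Asns, the lowest of the 10, were 5.16 to 39.6 normalized counts.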
